A study of Mus musculus with 4 samples.

Results

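The collagen gene family was followed across 4 sections of diseased mouse liver. The set was defined by name alone, as every gene whose symbol is Col followed by a type number, the letter a and a chain number, and it held 44 of the 32285 genes measured. Levels were described for all 44 genes, and the distribution over the tissue for the 25 genes that reached 1 CPM in at least 1 section, where CPM are the unique molecular identifiers (UMIs, each marking 1 captured RNA molecule) of a gene per 1e+06 UMIs of a section or group of spots. The sections were measured with Visium, which captures RNA from a frozen tissue slice on a hexagonal array of barcoded spots, each wide enough to hold parts of several cells. The STAM20w and STAM16w sections came from a metabolic model of liver cancer meant to mimic metabolic steatohepatitis with type I diabetes, at 20 and 16 labelled weeks. The DEN30w and DEN22w sections came from a fibrotic model given diethylnitrosamine (DEN), a carcinogen that damages DNA, and carbon tetrachloride (CCl4), a toxin that scars the liver, at 30 and 22 labelled weeks. Strain, sex and dosing are not in the labels, no untreated liver was among the samples analysed, and the labels do not say what the weeks count from or whether each section came from its own animal. Model and labelled time share no value, so the effect of the model and that of time between models cannot be told apart.

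Collagens are secreted or membrane proteins of 3 chains wound into a triple helix. Fibrillar types I, III and V form the tensile fibres that accumulate in liver scar, where activated stellate cells and portal fibroblasts are known as their main makers. Type IV collagen forms the sheet of basement membranes, type VI forms beaded filaments between fibres and basement membrane, and fibril-associated collagens with interrupted triple helices (FACIT, such as types XIV and XVI) decorate fibre surfaces. The multiplexins XV and XVIII carry sugar chains and sit at basement membranes. Type XVIII is known to be made by hepatocytes, and its end fragment is endostatin, an inhibitor of vessel growth.

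Between 2080 and 2968 spots per section passed the filters, with 20700642 to 40008457 UMIs per section and a median of 7302.5 to 12761 UMIs per spot. The 4 hepatocyte genes checked (Alb, Apoa1, Ttr and Serpina1c) summed to 33680.3, 29306.5, 50438.5 and 70754 CPM in STAM20w, STAM16w, DEN30w and DEN22w, and none of them was at 0. The mitochondrial share of UMIs was 3.67%, 2.10%, 1.55% and 1.31% in the same sections. Visium arrays carry the same barcodes, and 1136 of these lay over tissue in all 4 sections.

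Collagen transcripts were a small part of the RNA. Summed over the 44 genes they made up 785, 771, 1469 and 1394 CPM in STAM20w, STAM16w, DEN30w and DEN22w, from 31419, 15963, 51253 and 31335 UMIs. Both STAM sections lay below both DEN sections. The multiplexins, mostly Col18a1, held 52.0%, 59.5%, 54.6% and 64.9% of the collagen UMIs. Fibrillar collagens held 19.0%, 19.9%, 24.7% and 18.8%, and the basement membrane collagens 17.4%, 9.76%, 8.85% and 7.90%. Such shares compare UMIs without division by transcript length. In sums over whole sections, fewer cells of a type and less RNA per cell cannot be told apart. Of the 25 genes at 1 CPM or more, 16 were highest in DEN30w, 5 in DEN22w, 4 in STAM20w (Col4a1, Col4a2, Col12a1 and Col8a1) and 0 in STAM16w. Such counts were not made over all genes. Of 14417 genes tested between models, 39.2% had both STAM sections below both DEN sections and 18.5% above.

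**Figure D1:**
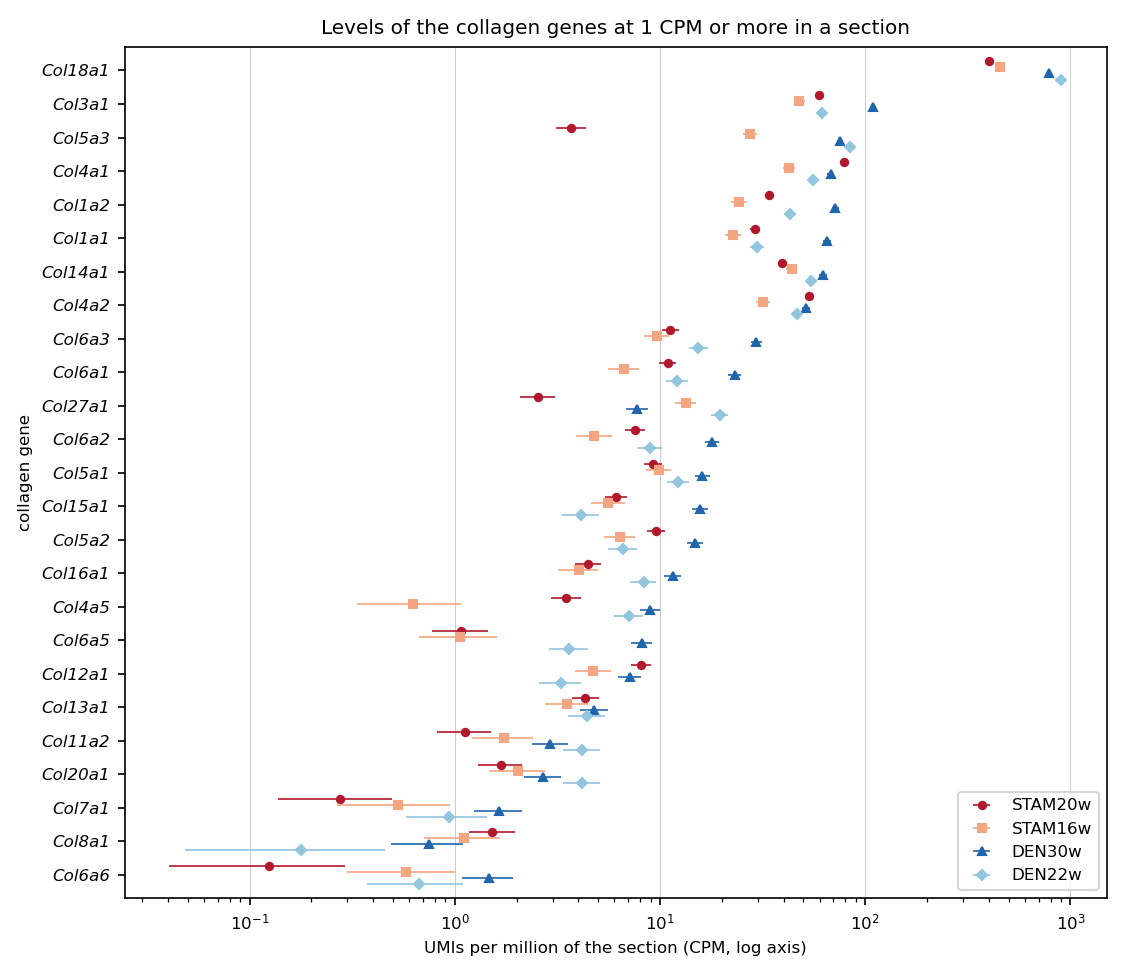
Level of each of the 25 collagen genes that reached 1 CPM in a section, in CPM on a log axis, with 1 symbol per section and bars for the 95% exact Poisson interval, which covers counting error only. Col18a1 stands far right at 402 to 900 CPM, Col5a3 and Col27a1 are lowest in STAM20w, and most fibrillar and beaded filament genes are highest in DEN30w.

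The most abundant member, Col18a1 (chr10:77052178-77166530 in GRCm38.p6), encodes the chain of type XVIII collagen. It measured 402 and 453 CPM in STAM20w and STAM16w, against 786 and 900 CPM in DEN30w and DEN22w. RefSeq places 2 start sites in it, one at the outer end of the gene and one inside it, and the deposited UMIs do not say which was used. The 150 bases upstream of each are shown because this gene, unlike the fibrillar ones described below, was detected almost everywhere. Capitals here and in the sequences below mark matches to 3 core promoter motifs on either strand: the TATA box, written TATAAA, the CCAAT box, known to bind NF-Y, and the GC box, written GGGCGG and known to bind Sp1-type factors.

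Col18a1 outer start, chr10:77166531-77166680, minus strand: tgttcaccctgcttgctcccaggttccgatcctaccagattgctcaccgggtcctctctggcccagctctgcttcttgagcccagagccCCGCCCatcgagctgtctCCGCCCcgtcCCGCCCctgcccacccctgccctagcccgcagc

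Col18a1 inner start, chr10:77113706-77113855, minus strand: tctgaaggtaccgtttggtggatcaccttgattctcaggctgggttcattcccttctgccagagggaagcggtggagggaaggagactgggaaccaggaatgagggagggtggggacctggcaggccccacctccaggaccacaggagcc

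The outer stretch held 3 GC boxes and the inner one no match. The second multiplexin, Col15a1, an endothelial basement membrane collagen, was scarce at 6.12, 5.604, 15.7 and 4.14 CPM in STAM20w, STAM16w, DEN30w and DEN22w. DEN30w thus stood above the other 3 sections.

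Among the fibrillar collagens, the chains of the scar types I and III were highest in DEN30w. Col3a1, which forms type III collagen, measured 59.5 and 47.7 CPM in STAM20w and STAM16w, against 110 and 61.3 CPM in DEN30w and DEN22w. Col1a2 measured 34.1 and 24.3 CPM in the STAM sections, against 71.4 and 43.2 CPM in the DEN sections. Col1a1, the partner chain of type I, measured 29.1 and 22.8 CPM in the STAM sections, against 65.1 and 29.6 CPM in the DEN sections. For all 3 genes STAM16w was lowest and DEN30w highest, and DEN22w lay close above STAM20w for Col3a1 and Col1a1. Upstream sequence is shown for Col1a2 and Col3a1, the scar collagens that the RefSeq promoter table held. Col1a1 (chr11:94936224-94953042) is not in it.

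Col1a2, chr6:4505468-4505617, plus strand: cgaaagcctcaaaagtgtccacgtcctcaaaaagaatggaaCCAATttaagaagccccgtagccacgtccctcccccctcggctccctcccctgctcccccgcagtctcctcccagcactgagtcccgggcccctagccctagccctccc

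Col3a1, chr1:45311388-45311537, plus strand: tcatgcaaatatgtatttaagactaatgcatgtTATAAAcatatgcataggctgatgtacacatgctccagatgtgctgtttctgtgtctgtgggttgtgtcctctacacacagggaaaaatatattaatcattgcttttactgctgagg

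The stretch of Col1a2 held 1 CCAAT box, and the AT-richer stretch of Col3a1, with 37.3% G and C against 62.7% for Col1a2, held 1 TATA box.

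The type V chains, which join type I fibres and set their width, fell into separate patterns. Col5a1 measured 9.25, 9.85, 16.1 and 12.2 CPM, and Col5a2 9.57, 6.38, 14.9 and 6.59 CPM, in STAM20w, STAM16w, DEN30w and DEN22w. Col5a3, the third chain of type V, measured 3.70 and 27.4 CPM in STAM20w and STAM16w, against 75.3 and 84.6 CPM in DEN30w and DEN22w. STAM20w was far below the other 3 sections, and the range of 22.9-fold was the widest among the 25 genes. In DEN22w Col5a3 carried more UMIs than Col3a1, Col1a1 or Col1a2. Its upstream stretch is shown for comparison with the other fibrillar genes, because its distribution, described below, ran against theirs.

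Col5a3, chr9:20815118-20815267, minus strand: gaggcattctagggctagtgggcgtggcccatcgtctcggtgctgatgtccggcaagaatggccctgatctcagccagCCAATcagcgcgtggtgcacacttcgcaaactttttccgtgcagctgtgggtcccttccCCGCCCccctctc

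It held 1 CCAAT box and 1 GC box. Col27a1, a fibrillar collagen best known from cartilage, measured 2.55 and 13.4 CPM in STAM20w and STAM16w, against 7.71 and 19.5 CPM in DEN30w and DEN22w. In both models the later section was the lower one. Col11a2 stayed between 1.12 and 4.18 CPM.

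Over the 250 bases upstream of all 32851 annotated starts in the RefSeq table (GRCm38.p6), 12.4% held TATAAA, 33.8% CCAAT and 32.7% GGGCGG on either strand, each motif being counted also where it overlapped another. Of the 38 windows of the 35 collagen genes in the table, 5 held TATAAA, 13 CCAAT and 22 GGGCGG, which is 13.2%, 34.2% and 57.9%. A match describes letters and not a used site.

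The basement membrane pair Col4a1 and Col4a2, the ubiquitous chains of type IV collagen, did not follow the fibrillar genes. Col4a1 measured 78.9 and 42.7 CPM in STAM20w and STAM16w, against 68.0 and 55.8 CPM in DEN30w and DEN22w. Col4a2 measured 53.5 and 31.6 CPM in the STAM sections, against 51.5 and 46.3 CPM in the DEN sections. STAM20w was thus the highest section and STAM16w the lowest for both chains. The genes lie head to head on chromosome 8, with annotated start sites 21 bases apart on opposite strands. Their windows in the promoter table, which also hold bases past each start, overlap by 78 bases. The bases upstream of the 2 starts do not overlap. Reads near the start cannot be assigned between overlapping genes unless strand is used, and the strand setting was not given in the sources used here. By their positions (chr8:11198423-11312889 for Col4a1 and chr8:11312805-11449287 for Col4a2) the genes overlap only at this end. Col4a5 was listed at 3.499, 0.628, 8.94 and 7.03 CPM in STAM20w, STAM16w, DEN30w and DEN22w, so STAM16w stood apart with 13 UMIs. Col4a3, Col4a4 and Col4a6, the chains of specialised basement membranes, were under 1 CPM everywhere.

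The 3 main chains of the beaded filament type VI shared 1 order of sections. Col6a3 measured 11.2, 9.61, 29.4 and 15.4 CPM in STAM20w, STAM16w, DEN30w and DEN22w, Col6a1 10.9, 6.67, 23.1 and 12.1 CPM, and Col6a2 7.55, 4.78, 18.005 and 8.90 CPM. It was the order of Col1a1, with STAM16w lowest and DEN30w highest. Col6a5 measured 1.07 and 1.06 CPM in the STAM sections, against 8.17 and 3.60 CPM in the DEN sections.

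Of the FACIT collagens, Col14a1, which binds fibre surfaces, was the most abundant at 39.3 and 43.7 CPM in STAM20w and STAM16w, against 62.3 and 54.6 CPM in DEN30w and DEN22w. Col16a1 measured 4.47 and 4.01 CPM in the STAM sections, against 11.5 and 8.32 CPM in the DEN sections. Col12a1, a FACIT collagen of tissues under tension, measured 8.10 and 4.73 CPM in the STAM sections, against 7.11 and 3.29 CPM in the DEN sections. Col20a1 stayed between 1.67 and 4.18 CPM, and the transmembrane Col13a1 between 3.53 and 4.79 CPM.

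Col8a1 peaked at 1.52 CPM in STAM20w, and Col7a1 and Col6a6 at 1.63 and 1.46 CPM in DEN30w. Another 15 genes had UMIs but stayed under 1 CPM in every section, the highest being Col4a4 at 0.745 CPM in DEN30w. Among the 15 was Col2a1, the main collagen of cartilage, which was at 0 in both STAM sections. Col9a1, Col10a1, Col19a1 and Col26a1 had 0 UMIs in all 4 sections. At these depths 0 UMIs allow up to 0.0750, 0.145, 0.0860 and 0.134 CPM in STAM20w, STAM16w, DEN30w and DEN22w (3 counts per section).

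Chains that share a protein were set against each other within each section as ratios of UMIs. Col1a1 to Col1a2 was 0.852, 0.936, 0.912 and 0.686 in STAM20w, STAM16w, DEN30w and DEN22w, although type I collagen contains more alpha1 than alpha2 chains. Its 95% counting interval in DEN22w, 0.621 to 0.758, lay below those of the other 3 sections. Col4a1 to Col4a2 ran from 1.48 in STAM20w through 1.35 in STAM16w and 1.32 in DEN30w to 1.20 in DEN22w. Col6a1 to Col6a2 stayed between 1.28 and 1.44. Col18a1 to Col3a1 was 6.76 and 9.50 in the STAM sections, against 7.18 and 14.7 in the DEN sections.

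Collagen UMIs were found nearly everywhere, and 95.8% to 99.1% of the spots of a section held at least 1. Col18a1 was detected in 90.4%, 96.0%, 94.9% and 96.8% of the spots of STAM20w, STAM16w, DEN30w and DEN22w. After thinning every spot to 2000 UMIs, which makes depths equal and left out shallower spots to keep 2623, 2038, 2630 and 2547, its shares were 55.1%, 59.7%, 80.0% and 84.3%, in the order of its CPM. Col3a1 was detected in 42.8%, 33.2%, 56.5% and 35.1% of spots, and in 10.3%, 9.91%, 19.4% and 10.95% after thinning. Col5a3 was detected in 4.94% and 22.7% of the STAM spots, against 50.7% and 46.8% of the DEN spots, and in 0.839% and 4.66% against 14.8% and 16.2% after thinning.

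A single spot of STAM20w held 43 UMIs of Col1a1, and the highest spot of DEN22w held 5. Moran's I, which is near 0 where touching spots are unrelated and approaches 1 where they are alike, was 0.248, 0.115, 0.149 and 0.0491 for Col1a1 and 0.211, 0.132, 0.131 and 0.0242 for Col3a1 in the same sections. Col18a1 gave 0.0657, 0.0379, 0.0315 and 0.0423. In STAM20w, STAM16w and DEN30w the values of Col1a1 and Col3a1 lay above that of Col18a1. In DEN22w Col1a1 was close to Col18a1 and Col3a1 was below it. Sparse genes give a low Moran's I whatever their distribution, so these values describe the counts.

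**Figure D2:**
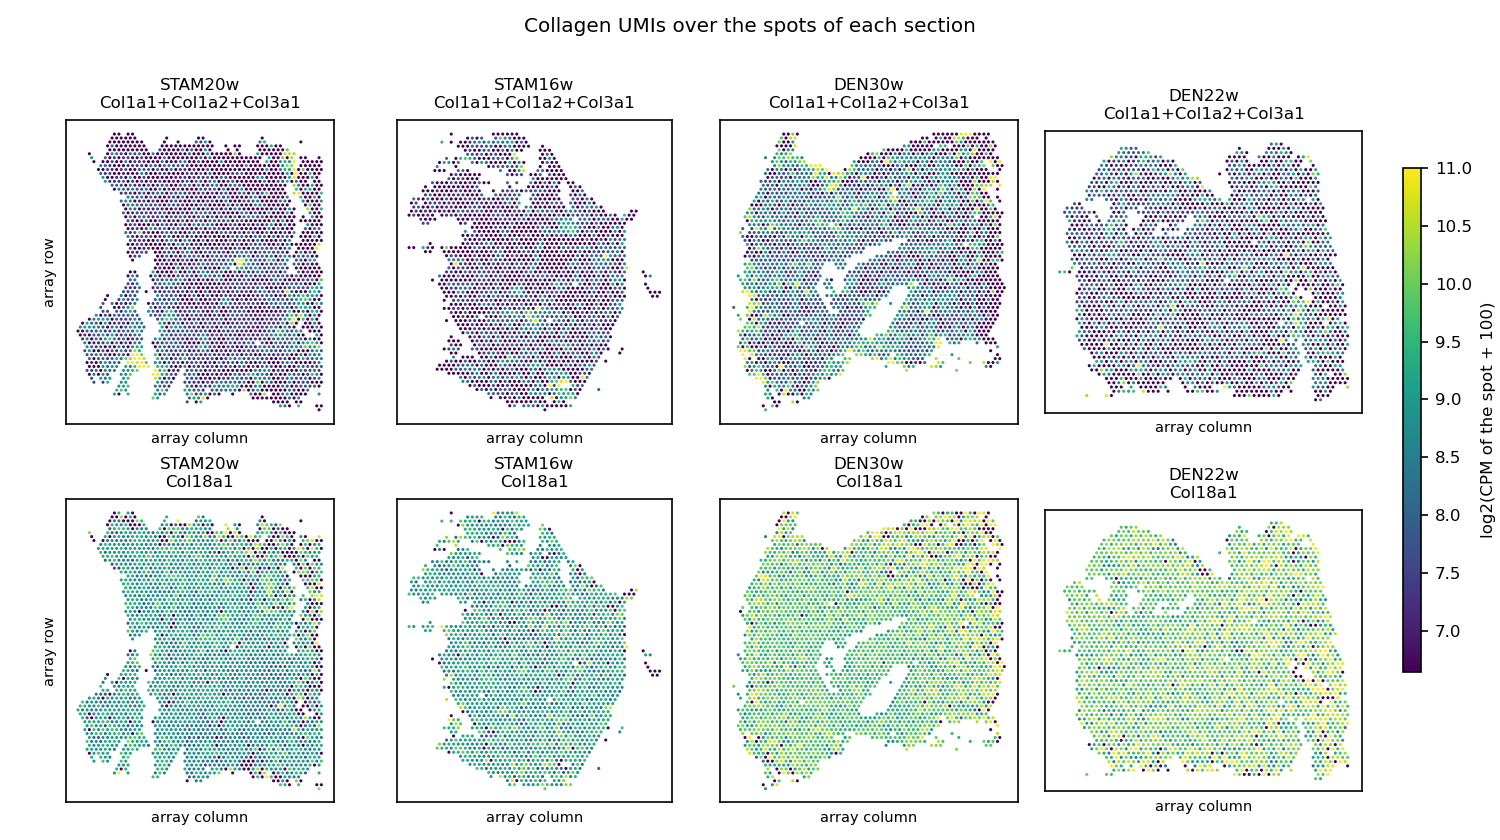
Each dot is a spot, placed by array row and column and coloured by log2(CPM of the spot + 100), in STAM20w, STAM16w, DEN30w and DEN22w. The upper maps sum Col1a1, Col1a2 and Col3a1 and show bright spots over a darker field. The lower maps show Col18a1, bright over the whole tissue and brighter in the DEN sections. Values above the top of the scale share its last colour.

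At the tissue edge, which was made up of spots with fewer than 6 neighbours over tissue, the ratios of scar collagens were highest in STAM20w and DEN30w. The log2 ratio of edge to interior for Col1a1 was 1.59 and 0.07 in STAM20w and STAM16w, and 1.29 and 0.38 in DEN30w and DEN22w. Col1a2 gave 1.57, 0.11, 1.22 and 0.69, and Col3a1 1.24, 0.29, 0.90 and 0.37, in the same sections. In DEN22w the 95% counting intervals lay above 0 for all 3 genes, at 0.06 to 0.68 for Col1a1, 0.45 to 0.92 for Col1a2 and 0.16 to 0.59 for Col3a1. In STAM16w the interval lay above 0 for Col3a1 (0.05 to 0.53) and held 0 for Col1a1 and Col1a2. Col5a3 went the other way in each section, at -0.85, -0.21, -0.64 and -0.41, with 95% counting intervals that held 0 in both STAM sections, and Col18a1 stayed between -0.22 and 0.16. Edge spots of STAM20w had a median of 6875 UMIs against 13561.5 inside, and the part of depth in these ratios was not tested. Mesothelial genes, which could mark the liver capsule, summed over 4 genes to 1.52, 0.821, 1.003 and 0.668 CPM in STAM20w, STAM16w, DEN30w and DEN22w, with 2 of the 4 at 0 in STAM16w.

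Whether the models differed was tested with both STAM sections against both DEN sections. No collagen gene passed the test: 0 of the 30 tested had an adjusted p under 0.05 in edgeR, against 0.291% of 14417 genes called higher and 0.146% called lower in STAM. At an unadjusted p under 0.05 there were 12, against 22.9% of all genes. DESeq2 called 3, against 10.5% of all genes in either direction, which is close to the members' share. They were Col16a1 (-1.05), Col6a5 (-2.27) and Col18a1 (-0.81), as log2 changes, all lower in STAM. Without the filter on low counts edgeR called 6 of 40, all lower in STAM, against 9.14% of 20484 genes in either direction. The median log2 change of the 30 was -0.71, beside -0.00 over all genes tested. In 21 of the 30 both STAM sections lay below both DEN sections, against 39.2% of all genes, and in 1 (Col8a1) above, against 18.5% of all genes. The edgeR log2 change was -0.81 (SE 0.30, adjusted p = 0.192) for Col18a1, -0.80 (SE 0.27, adjusted p = 0.167) for Col1a2, -0.68 (SE 0.35, adjusted p = 0.297) for Col1a1 and -0.49 (SE 0.28, adjusted p = 0.343) for Col3a1. It was -2.27 (SE 0.45, adjusted p = 0.0853) for Col6a5, the member nearest the threshold, and 0.13 (SE 0.28, adjusted p = 0.821) for Col4a1. For Col5a3 the value was -2.15 (SE 0.88, adjusted p = 0.223). Without STAM16w it was -4.36 in edgeR (adjusted p = 0.0148), the 1 member of 31 called there, against 6.02% of all genes. Without STAM20w it was -1.32 in edgeR (adjusted p = 0.106). In both cases the lone STAM section was assumed to vary like the DEN ones. Among 54 other genes tested that make, trim, bind or degrade collagen or belong to the TGF-beta axis, only the matrix metalloproteinase Mmp2, which cleaves collagen, was called, at -1.89 (SE 0.22, adjusted p = 0.0442). Mmp2 measured 4.25, 4.49, 18.1 and 18.3 CPM in STAM20w, STAM16w, DEN30w and DEN22w. The labels do not say that sections are separate animals, so these p-values measure only the spread between 4 sections.

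To ask where in the tissue the genes were found, spots were classed within each section by the mean log2(CPM + 100) of marker genes. Each class was the top 10% of spots by score within 10 strata of spots with like UMI totals. Such a spot is rich in the markers and is not a cell type. Fibroblast-rich spots, scored on matrix genes such as Dcn and Lum, carried more scar collagen in each section. Col1a1 measured 107, 51.3, 205 and 58.3 CPM in the fibroblast-rich spots, against 20.6, 19.6, 49.3 and 26.5 CPM in the other spots of STAM20w, STAM16w, DEN30w and DEN22w. Col3a1 measured 173, 94.98, 271 and 100.4 CPM in the fibroblast-rich spots, against 47.1, 42.4, 91.2 and 57.0 CPM in the other spots in the same order of sections. In all 4 sections both genes were higher in the class. Of 24 collagen genes tested, 15 were higher and 1 was lower in edgeR with section as a block, against 6.03% and 4.91% of all 13050 genes. The median log2 change was 0.78, beside -0.04 over all genes.

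The rise covered several structural groups. Of the fibrillar chains, Col1a1 (1.75), Col1a2 (1.62), Col3a1 (1.32), Col5a2 (0.85), Col5a1 (0.85) and Col27a1 (0.57) rose, given as log2 changes. Of the beaded filament chains, Col6a5 (2.07), Col6a2 (1.70), Col6a3 (1.46) and Col6a1 (1.36) rose. The surface-binding Col16a1 (1.03) and Col14a1 (0.70), the basement membrane Col4a1 (0.62) and Col4a2 (0.58) and the multiplexin Col15a1 (0.61) also rose. The multiplexin Col18a1 did not pass, at -0.17 (SE 0.06, adjusted p = 0.0640), with 392, 462, 694 and 858 CPM in the fibroblast-rich spots, against 403, 452, 797 and 905 CPM in the other spots of the sections in the same order. Col5a3 was the 1 gene called lower in edgeR, at -0.28 (SE 0.09, adjusted p = 0.0471), a call that was lost in 8 of 10 alternatives.

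Some genes that act on collagen were called in the same spots, with 6.03% of all genes higher and 4.91% lower as above. Of the folding and modifying enzymes 5 of 17 tested rose and 0 fell, with a median log2 change of 0.07, among them Serpinh1 (0.88), the collagen chaperone HSP47, and Fkbp10 (1.19). Of the trimming and crosslinking genes 7 of 10 rose, with the crosslinking enzyme Loxl1 (1.77) and the propeptide-cleaving Adamts2 (1.304), and 1 fell, Bmp1. Of the collagen receptors 3 of 7 rose, with the integrin chain Itga1 (0.45) and the inhibitory receptor Lair1 (0.60). Of the genes for collagen breakdown and its inhibitors 5 of 8 rose, with Mmp2 (1.49) and the inhibitor Timp1 (1.44). Of the TGF-beta axis, a well known driver of collagen transcription in scarring liver, 8 of 9 rose, with the latency-binding Ltbp2 (2.04) and the response gene Ccn2 (0.90). Markers of other cells rose there too: 4 of 4 for smooth muscle and myofibroblasts, 5 of 7 for bile duct, 7 of 7 for scar macrophages, 6 of 9 for stellate cells and 5 of 6 for vascular endothelium. Of 8 periportal hepatocyte markers 7 fell, while none of 8 pericentral markers and none of 6 sinusoidal endothelium markers was called, and 1 of 5 Kupffer cell markers rose. The part of these cells in the collagen differences, those of Col5a3 and Col18a1 included, was not tested. The share of fibroblast-rich spots at the tissue edge was 24.3%, 19.0%, 37.7% and 19.2% in STAM20w, STAM16w, DEN30w and DEN22w.

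**Figure D3:**
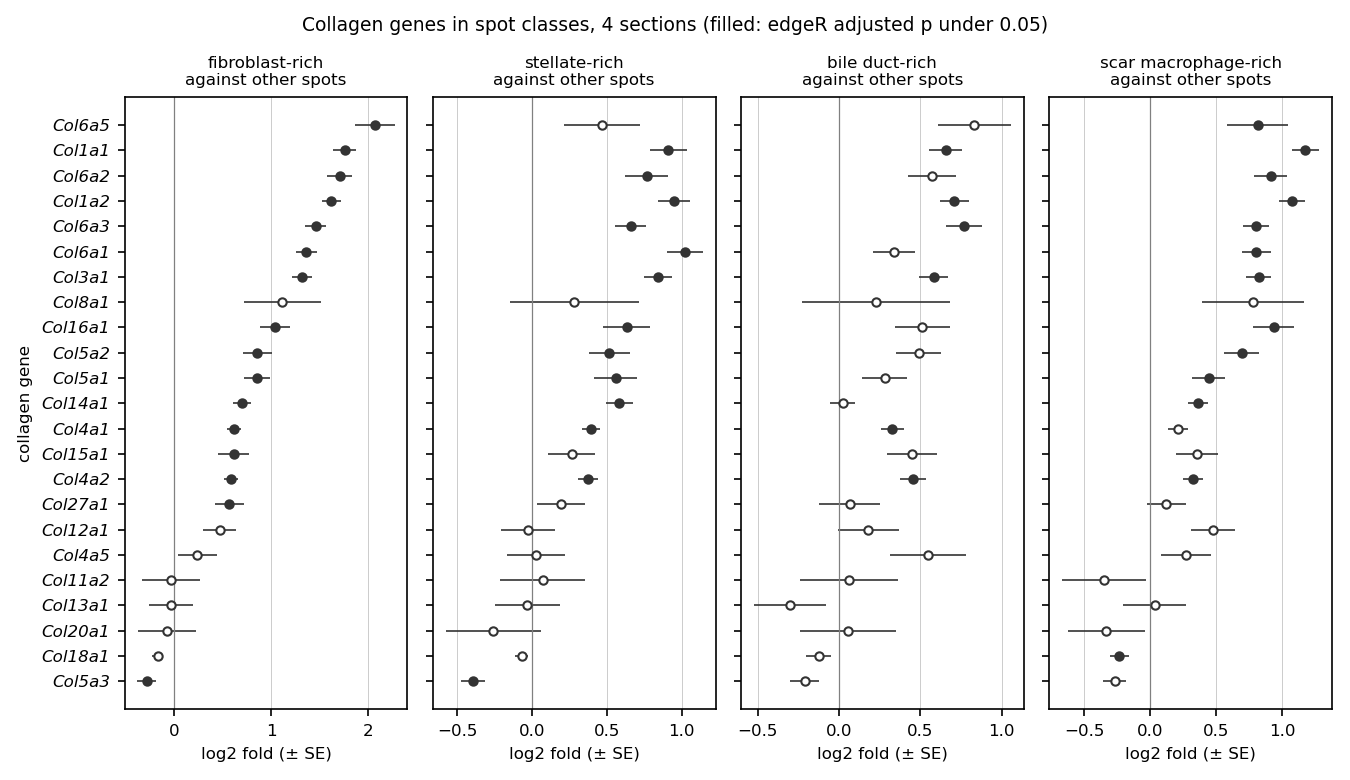
The edgeR log2 change of each collagen gene in 4 spot classes against the other spots, over all 4 sections, with bars for the SE and filled points for an adjusted p under 0.05. Type I, III and VI chains stand right of 0 in each class, from 2.07 (Col6a5) to 1.32 (Col3a1) in the fibroblast-rich spots, whereas Col18a1 and Col5a3 lie left of 0.

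Stellate-rich spots were scored on stellate cell genes such as Lrat and Reln. Smooth muscle and myofibroblast genes were a separate list, and 0 of the 4 tested were called in these spots. The stellate-rich spots carried more of 12 and less of 1 of 25 collagen genes tested in edgeR, against 2.21% and 1.75% of all genes. Type VI and type I led, with Col6a1 (1.02), Col1a2 (0.95) and Col1a1 (0.91), followed by Col3a1 (0.84), Col6a2 (0.76), Col6a3 (0.66), Col16a1 (0.63), Col14a1 (0.58), Col5a1 (0.56), Col5a2 (0.52), Col4a1 (0.39) and Col4a2 (0.37), as log2 changes. Col1a1 measured 77.8, 30.8, 108 and 35.8 CPM in the stellate-rich spots, against 23.8, 21.9, 60.4 and 29.0 CPM in the other spots of STAM20w, STAM16w, DEN30w and DEN22w. Col5a3 fell in edgeR, at -0.40 (SE 0.08, adjusted p = 0.00332), and measured 2.32, 26.4, 57.0 and 72.9 CPM in the stellate-rich spots, against 3.85, 27.5, 77.3 and 85.8 CPM in the other spots of the same sections. Of the other markers in these spots, 7 of 8 periportal hepatocyte genes fell, and 5 of 10 fibroblast, 4 of 7 scar macrophage, 3 of 5 Kupffer cell and 1 of 8 pericentral genes rose. Of the stellate-rich spots 19.3%, 27.1%, 8% and 14.1% were periportal and 41.1%, 40.0%, 55.3% and 55.8% pericentral in STAM20w, STAM16w, DEN30w and DEN22w, by the ranking described below. The part of these in the collagen differences was not tested. With fibroblast-rich spots left out, 5 genes were higher and 1 lower, against 1.83% of all genes in either direction, and 28.6%, 18.1%, 20.7% and 16.3% of the stellate-rich spots of STAM20w, STAM16w, DEN30w and DEN22w were also fibroblast-rich.

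Bile duct-rich spots, scored on keratins and other duct genes, carried more of 6 and less of 0 of 23 collagen genes, against 1.18% and 0.246% of all genes in edgeR. They were Col6a3 (0.77), Col1a2 (0.71), Col1a1 (0.65), Col3a1 (0.58), Col4a2 (0.45) and Col4a1 (0.33), and Col18a1 did not pass at -0.13 (SE 0.08, adjusted p = 0.552) in edgeR. At an unadjusted p under 0.05 there were 14, against 12.6% of all genes, and DESeq2 called 4 higher and 0 lower, against 0.377% of all genes. Without DEN30w only Col1a2 was called, against 0.401% of all genes. Fibroblast markers moved with this class, 6 of 10 being higher in it, and 14.3%, 14.3%, 24.0% and 12.7% of its spots were also fibroblast-rich in STAM20w, STAM16w, DEN30w and DEN22w. With fibroblast-rich spots left out 4 collagen genes were higher, against 0.384% of all genes. Scar macrophage-rich spots, scored on genes such as Gpnmb and Trem2 of macrophages found in fibrotic tissue, carried more of 12 and less of 1 of 23, against 4.82% and 3.96% of all genes in edgeR. The largest log2 changes there were Col1a1 (1.17), Col1a2 (1.07), Col16a1 (0.93) and Col6a2 (0.91). Col18a1 was the 1 called lower, at -0.23 (SE 0.07, adjusted p = 0.0437) in edgeR, a call lost in 6 of 11 alternatives. Without DEN30w 7 genes were called, against 1.9% of all genes, and with fibroblast-rich spots left out 5, against 4.93%. Fibroblast-rich spots made up 20.4%, 14.3%, 26.7% and 24.6% of this class in STAM20w, STAM16w, DEN30w and DEN22w. Of other markers, 7 of 10 fibroblast and 3 of 8 pericentral genes rose in it, and 7 of 8 periportal genes fell. By the ranking described below, 46.8%, 38.6%, 63.7% and 67.03% of the class were pericentral in the same sections. In the same order 15.7%, 30%, 9.67% and 8.33% were periportal. The part of these markers and of zone in the collagen differences, that of Col18a1 included, was not tested.

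Liver lobules are zoned, with portal tracts at one pole and the central vein at the other. Spots of each section were ranked by periportal over pericentral hepatocyte markers, and the highest and lowest of 3 equal groups were compared as periportal and pericentral spots. In edgeR with section as a block, 2 of 22 collagen genes were higher and 0 lower in the periportal spots, against 4% and 3.59% of all 12635 genes. At an unadjusted p under 0.05 there were 11 in either direction, against 21.7% of all genes, and DESeq2 called 2 higher and 0 lower, against 5.03%. The log2 change of Col5a3, which rose periportally, was 0.66 (SE 0.11, adjusted p = 0.00590) in edgeR; it measured 4.68, 35.3, 87.9 and 87.8 CPM in the periportal spots, against 2.24, 19.6, 60.4 and 76.2 CPM in the pericentral spots of STAM20w, STAM16w, DEN30w and DEN22w. The per-section log2 ratios of Col5a3 were 1.07, 0.85, 0.54 and 0.20, above 0 in each section. Col18a1 also rose, with a log2 change of 0.29 (SE 0.08, adjusted p = 0.0487) in edgeR; it measured 452, 462, 844 and 945 CPM in the periportal spots, against 354, 442, 729.7 and 864 CPM in the pericentral spots of the same sections, and lost its call in 6 of 11 alternatives. Without STAM20w 1 gene was higher and 7 were lower, against 8.09% of all genes in either direction. Without DEN22w 1 was called, against 3.8%, and without DEN30w 1, against 3.74%.

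The scar collagens had a zonal difference in the DEN sections and little in the STAM sections. Col1a1 measured 25.1, 25.8, 33.5 and 17.95 CPM in the periportal spots, against 26.0, 20.7, 107 and 44.8 CPM in the pericentral spots of STAM20w, STAM16w, DEN30w and DEN22w. Its log2 ratios were -0.05, 0.32, -1.68 and -1.32. Col3a1 gave log2 ratios of 0.06, -0.02, -1.24 and -0.85, and Col1a2 of 0.03, -0.02, -1.56 and -1.005, in the same sections. In both DEN sections these 3 genes were denser in the pericentral spots, which were named from hepatocyte markers alone. After these values were seen, the difference between models in the zone effect was tested. In edgeR 4 of 22 collagen genes were called, all with a higher value in STAM, against 0.467% of all genes higher and 0.222% lower. They were Col1a1 at 1.57 (SE 0.16, adjusted p = 0.00086), Col1a2 at 1.26 (SE 0.17, adjusted p = 0.00686), Col3a1 at 1.02 (SE 0.15, adjusted p = 0.00754) and Col6a1 at 1.32 (SE 0.20, adjusted p = 0.0116), as STAM minus DEN on the log2 scale. Without STAM16w 11 of 24 were called, against 9.86% of all genes in either direction.

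Taken within STAM, edgeR called 1 collagen gene higher periportally, Col5a3 (0.96), and 0 lower, against 3.43% and 3.31% of all genes, and 3 members had an unadjusted p under 0.05, against 18.9% of all genes. DESeq2 called 1 higher and 0 lower within STAM, against 2.42%. Within DEN edgeR called 1 higher, Col5a3 (0.52), and 9 lower, against 3.41% and 4.5% of all genes, and DESeq2 called 0 higher and 5 lower, against 2.16% in either direction. The 9 were Col1a1 (-1.40), Col6a1 (-1.26), Col1a2 (-1.18), Col6a2 (-1.02), Col6a3 (-0.99), Col16a1 (-0.94), Col3a1 (-0.93), Col5a1 (-0.58) and Col14a1 (-0.47), as log2 changes. Without DEN30w edgeR called 5 genes within DEN, against 2.77% of all genes, and without STAM16w 6 within STAM, against 18.2%. Fibroblast-rich spots moved with this: 45.0%, 36.7%, 62.0% and 56.5% of them were pericentral in STAM20w, STAM16w, DEN30w and DEN22w, and 19.6%, 39.0%, 11.3% and 16.7% periportal. The 10 fibroblast genes summed to 231, 142, 187 and 123 CPM in the periportal spots, against 300.3, 163, 379 and 227 CPM in the pericentral spots. The 7 scar macrophage genes, of which 6 were lower periportally, summed to 130.5, 60.9, 112 and 147 CPM in the periportal spots, against 252, 69.9, 249 and 381 CPM in the pericentral spots. The 10 stellate genes, of which 4 of 9 tested were lower periportally, summed to 271, 286, 229 and 249 CPM in the periportal spots, against 317, 347, 367 and 409 CPM in the pericentral spots. The 5 smooth muscle and myofibroblast genes went the other way, with 1 of 4 tested, Acta2, higher periportally. They summed to 16.8, 24.2, 48.6 and 21.7 CPM in the periportal spots, against 13.3, 10.4, 47.3 and 12.003 CPM in the pericentral spots. Of the bile duct genes 1 of 6 tested was higher periportally. The 7 summed to 346, 124, 226 and 143 CPM in the periportal spots, against 313, 88.9, 247 and 110 CPM in the pericentral spots. Of the bile duct-rich spots 38.6%, 48.6%, 26.0% and 43.5% were periportal. In the same order 36.4%, 20.5%, 41.3% and 30.8% were pericentral. In DEN30w the bile duct markers were thus not denser on the periportal side of the ranking. The part of these cells in the zonal differences was not tested. With fibroblast-rich spots left out, the difference between models was called for Col1a1 only, at 1.16, against 0.259% of all genes, while within DEN 1 gene was higher and 8 were lower, against 5.24%. Of the genes that act on collagen, Serpinh1 (-0.49), Lair1 (-0.54), Mmp2 (-1.05), Ltbp2 (-1.16) and Tgfbr2 (-0.34) were lower periportally over all 4 sections. All 8 markers of each pole were called in their own direction, as the ranking fixes.

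**Figure D4:**
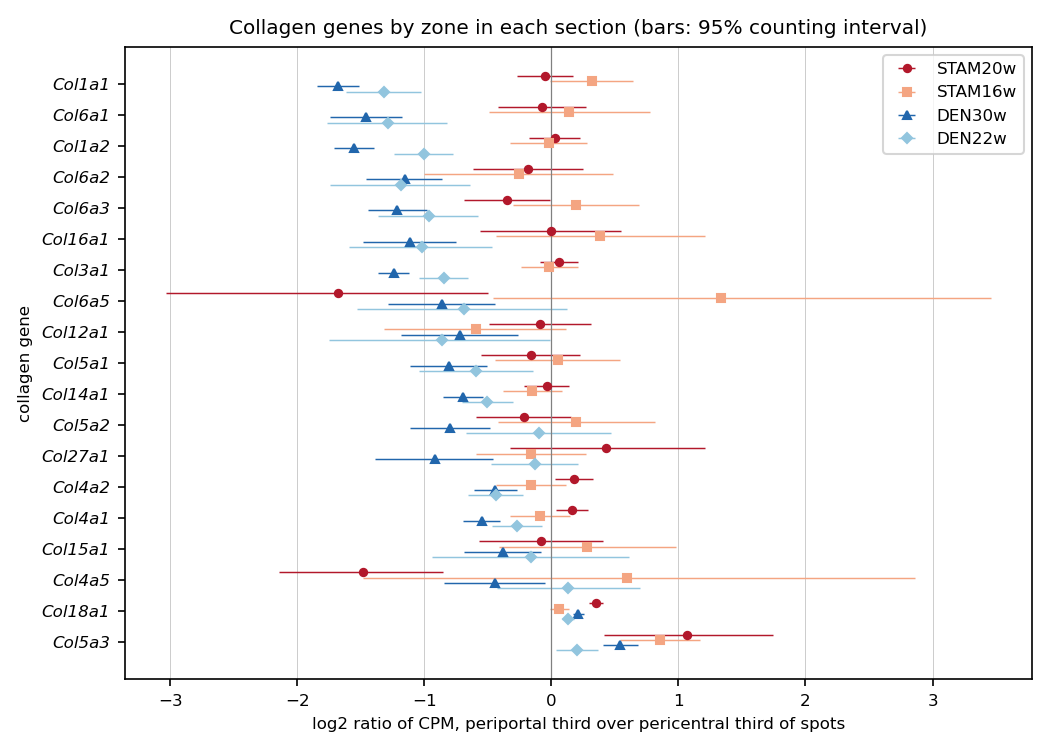
Log2 ratio of CPM in the periportal over the pericentral spots, with 1 symbol per section and bars for the 95% counting interval. Col1a1, Col1a2 and Col3a1 lie between -1.68 and -0.85 in the DEN sections and between -0.05 and 0.32 in the STAM sections, and Col5a3 lies above 0 in all 4.

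Within each model, the later section was set beside the earlier one without a test, since each time is 1 section, over genes at 10 CPM or more in either section and with at least a 2-fold difference counted. The intervals are 95% intervals that cover counting error only. Between STAM20w and STAM16w, 0 of 11 collagen genes were 2-fold higher and 2 were 2-fold lower, against 6.49% and 2.69% of all genes. Col5a3 had 3.70 CPM in STAM20w, against 27.4 CPM in STAM16w, a log2 ratio of -2.89 (-3.16 to -2.63). Col27a1 had 2.55 CPM in STAM20w, against 13.4 CPM in STAM16w, a log2 ratio of -2.39 (-2.73 to -2.06). Scar collagens differed less, with log2 ratios of 0.35 (0.20 to 0.51) for Col1a1 and 0.32 (0.21 to 0.43) for Col3a1, and Col4a1 had 0.89 (0.78 to 0.995). The median of the 11 was 0.32, beside 0.14 over all genes.

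Between DEN30w and DEN22w, 4 of 16 collagen genes were 2-fold higher and 1 was 2-fold lower, against 2.51% and 0.902% of all genes. Col15a1 had 15.7 CPM in DEN30w, against 4.14 CPM in DEN22w, a log2 ratio of 1.92 (1.60 to 2.26). Col1a1 had 65.1 CPM in DEN30w, against 29.6 CPM in DEN22w, a log2 ratio of 1.14 (1.01 to 1.26). Col5a2 and Col6a2 were the other members past 2-fold higher, at 1.17 (0.91 to 1.45) and 1.02 (0.78 to 1.25). Col27a1 was the 1 lower, with 7.71 CPM in DEN30w, against 19.5 CPM in DEN22w, a log2 ratio of -1.34 (-1.56 to -1.12). Col27a1 was thus past 2-fold lower at the later time in both models. Col5a3 had -0.17 (-0.25 to -0.08) here. The median of the 16 was 0.60, beside 0.08 over all genes. The chaperone Serpinh1 measured 61.2 CPM in DEN30w, against 19.6 CPM in DEN22w, and the smooth muscle actin Acta2 16.3 CPM, against 3.74 CPM. They were among 2 of 11 folding and modifying enzymes and 3 of 3 smooth muscle and myofibroblast genes past 2-fold higher in DEN30w. Of the fibroblast genes 2 of 5 were past 2-fold higher there. In STAM20w 1 of 11 such enzymes and 2 of 2 fibroblast genes were past 2-fold higher, against 6.49% of all genes. In these lists 0 were past 2-fold lower. With 1 section per time, time and section cannot be told apart.

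**Figure D5:**
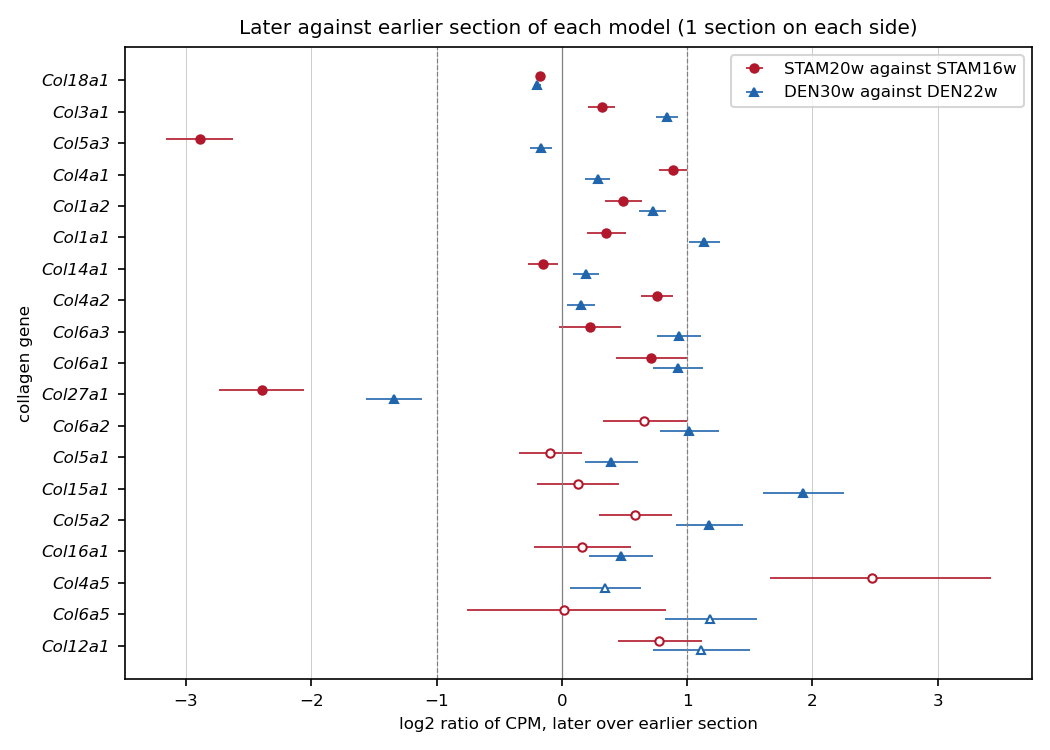
Log2 ratio of the later over the earlier section for collagen genes, in STAM (STAM20w over STAM16w) and DEN (DEN30w over DEN22w), with bars for 95% counting intervals, open symbols for genes under 10 CPM in both sections and dashed lines at a 2-fold difference. Col27a1 is below -1 in both, Col5a3 only in STAM, and among genes at 10 CPM or more Col15a1 has the highest value in DEN.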

How the data were processed

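RNA of 4 frozen liver sections was measured with Visium, per the labels. The deposited values are whole UMI counts per gene and spot. The authors made these counts with Space Ranger 1.3.1, with STAR and mm10 also named, per the submitters' processing notes. Strand setting was not given in the sources used here. Spots with at least 500 UMIs and 250 genes were kept. Counts were summed per section, or per section and class of spots. They were tested with edgeR 4.0.16 (quasi-likelihood, TMM, R 4.3.3), with Benjamini-Hochberg adjustment over all genes tested and a threshold of 0.05. DESeq2 1.42.0 was an alternative. Classes and zones (3 equal groups) used the mean log2(CPM + 100) of marker genes. Collagen genes were named when called, beside 13 always given, and other lists by at most 4 called genes. Members and lists were chosen with earlier results of these data known. The zone difference between models and the within-model zone effects were added after seeing the data. In simulated counts each of the 6 main comparisons recovered 100% of genes changed by 2 on the log2 scale, with 6 to 14 false calls. The simulation changed only well-counted genes and gave all genes the same fixed spread. It therefore does not show the power at the spread of these sections. Intervals (95%) cover counting error only. Upstream sequences and positions came from RefSeq tables on GRCm38.p6, and 35 of 44 genes matched the promoter table.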

Additional observations from a re-analysis of the deposited data

Results flagged for a closer look

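The zone effect of 4 collagen genes differed between the models in edgeR's test of that difference, which was added after the values per section were seen. The periportal over pericentral log2 change, STAM minus DEN, was 1.57 for Col1a1, 1.32 for Col6a1, 1.26 for Col1a2 and 1.02 for Col3a1. In 2 further results every STAM section moved one way and every DEN section the other, and the difference was not tested. These 2 were picked by their signs from the values of several collagen genes and comparisons. With 4 sections random signs can also give such a split. Such splits were not counted over all genes, so these 2 cannot be set against other genes. For Col27a1 in bile duct-rich against other spots the log2 ratios were -0.80, -0.61, 0.44 and 0.48 in STAM20w, STAM16w, DEN30w and DEN22w, and the means differed by -1.17, STAM minus DEN. Their 95% counting intervals were -2.28 to 0.37, -1.37 to 0.06, -0.11 to 0.95 and 0.05 to 0.88, so that 3 of the 4 held 0. For Col18a1 at the tissue edge against the interior they were 0.16, 0.05, -0.22 and -0.10 in the same sections, and the means differed by 0.26. Their intervals were 0.08 to 0.23, -0.04 to 0.13, -0.27 to -0.17 and -0.16 to -0.04, and that of STAM16w held 0.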

How the results depend on the processing

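With 2 sections per model the calls rest on few samples, and genes of a few CPM have wide counting intervals. Of 113 values of single genes, 65 were called, and 35 of the 65 lost the call in some alternative, but 0 of the 65 reversed. Of 1182 values under alternatives, 1021 kept direction and call. No paired analysis was possible between models because replicate numbers only order sections of different weeks. Zones and spot classes were compared within sections, with section as a block. Where a setting moved a count, the cause was not tested. Called collagen genes numbered as follows. Between models they were 3 with DESeq2 and 6 without the low-count filter, against 10.5% and 9.14% of all genes. Between zones they were 9 of 40 without the filter, where 863 of 19915 genes were higher and 820 lower. They were 4 of 22 with another share of spots, where 503 of 12134 genes were higher and 468 lower. They were 1 each with all spots (480 higher and 426 lower of 12618 genes), without depth deciles (539 and 442 of 12688) and with fibroblast-rich spots left out (434 and 391 of 12333). In stellate-rich spots they were 7 with DESeq2, where 103 of 13008 genes were higher and 67 lower. With fibroblast-rich spots left out they were 6 there, against 1.83% of all genes, and 5 in scar macrophage-rich spots, against 4.93%. For the zone difference between models they were 8 of 40 without the filter, where 227 of 19915 genes were higher and 203 lower. With fibroblast-rich spots left out they were 1 for that difference, against 0.259% of all genes. Within STAM they were 4 of 40 without the filter, where 686 of 19915 genes were higher and 649 lower. Within DEN they were 5 with DESeq2, against 2.16% of all genes. Between times, STAM had 0 past 2-fold at a 50 CPM minimum, and DEN had 1 at 50 CPM and 8 at 1 CPM. Shares over all genes are not given at these minimums, so these counts cannot be set against other genes. Leaving out 1 section gave 0 to 1 calls between models, 1 to 8 between zones, 13 to 18 in fibroblast-rich, 10 to 13 in stellate-rich, 1 to 7 in bile duct-rich and 7 to 14 in scar macrophage-rich spots. It gave 3 to 11 for the zone difference, 1 to 6 within STAM and 5 to 16 within DEN. A lone section left in a model was assumed to vary like the others. Counts over all genes also moved with the section left out. Without mitochondrial genes in the total, summed collagen was 815, 788, 1493 and 1413 CPM in STAM20w, STAM16w, DEN30w and DEN22w.

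Reversed log2 values all belonged to genes without a call. Leaving out 1 section, the model values spanned -0.67 to 0.36 for Col5a2, -1.18 to 0.60 for Col15a1, -2.35 to 0.32 for Col27a1 (also above 0, at 0.19, without STAM20w), -0.31 to 0.43 for Col4a1 and -0.41 to 0.21 for Col4a2. The zone values spanned -0.30 to 0.0148 for Col5a2, -0.12 to 0.0920 for Col15a1, -0.26 to 0.0469 for Col27a1 and -0.22 to 0.0342 for Col4a1. Col15a1 also gave 0.0025 with DESeq2, 0.118 with fibroblast-rich spots left out, 0.0220 without depth deciles and 0.0247 with another share of spots, and -0.0001 in stellate-rich spots with fibroblast-rich spots left out. In bile duct-rich spots, leaving out 1 section, Col27a1 spanned -0.220 to 0.27 (-0.0666 without DEN30w) and Col14a1 -0.0280 to 0.0891. There Col27a1 gave -0.0366 with DESeq2 and -0.0906 with another class size, and Col14a1 gave -0.0245 without the filter, -0.0281 with fibroblast-rich spots left out and -0.0144 with another class size. In scar macrophage-rich spots Col27a1 spanned -0.0067 to 0.20 and gave -0.0788 with fibroblast-rich spots left out. For the zone difference Col5a2 spanned -0.0147 to 0.70 and Col18a1 -0.21 to 0.135 (0.0232 without DEN30w).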
